A study of Homo sapiens with 16 samples.

Results

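The genes described here are 9 ligands of immune checkpoints: CD274 (PD-L1), PDCD1LG2 (PD-L2), CD276 (B7-H3), VTCN1 (B7-H4), PVR (CD155), NECTIN2 (CD112), LGALS9 (galectin-9), CD47 and HLA-E. They were chosen by name, as 9 of the 58721 genes in the deposited tables, and each was found in the table. RNA was sequenced from the 3' ends of transcripts in 16 libraries of 2 human bladder cancer cell lines, RT112, a luminal line grown in RPMI, and SCaBER, a basal line grown in DMEM, both with serum. Each line was transfected for a short knock-down with 10 nM of 1 of 4 small interfering RNAs (siRNAs): siFOXA1.1 or siFOXA1.2, both against the transcription factor FOXA1, or siControl.1 or siControl.2. Each siRNA had 2 libraries per line, numbered by experiment batch, and each type of bladder cancer was represented by a single line, so that line, subtype and medium cannot be told apart.

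Checkpoint ligands are proteins on the cell surface, or secreted ones, through which a cell restrains the immune cells it meets. PD-L1 and PD-L2 bind PD-1 on T cells, PVR and NECTIN2 bind TIGIT on T and NK cells, CD47 signals to SIRP-alpha on macrophages, and HLA-E presents peptides to the NKG2A receptor of NK cells. PD-L1 is known as a gene that interferon gamma switches on through JAK and STAT proteins and IRF1, and antibodies against PD-1 or PD-L1 are used to treat bladder cancer.

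FOXA1 itself was measured first. In RT112 it stood at 35.0 and 29.4 CPM (counts as a share of the library total, scaled equally for every library) in the siControl.1 libraries and at 18.2 and 28.4 CPM under siControl.2. It fell to 1.32 and 3.24 CPM under siFOXA1.1 (log2 change -3.44, SE 0.47, adjusted p = 2.19e-05 by edgeR's quasi-likelihood test; -4.26 without siFOXA1.1 replicate 2). Under siFOXA1.2 it stood at 9.18 and 15.98 CPM, below every control library, and the change did not pass the adjusted threshold of 0.05 (log2 change -1.10, SE 0.39, adjusted p = 0.205). In SCaBER the transcript was close to the detection floor of 3 counts, at 0.499 to 2.43 CPM in the control libraries and 0 to 0.951 CPM under the FOXA1 siRNAs, and was not tested. Epithelial markers were above the floor in every library for 6 of 6 genes in RT112 and 5 of 6 in SCaBER, while the summed leukocyte markers never exceeded 5.49 CPM, with PTPRC, CD3D, CD3E, MS4A1 and NKG7 at 0 in all 16 libraries. Library totals ranged from 4528510 to 7604580 counts, so the floor was 0.394 to 0.662 CPM, a limit that covers counting error only.

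CD274 and PDCD1LG2 lie side by side on chromosome 9 (CD274 at chr9:5450542-5470554, PDCD1LG2 at chr9:5510531-5571282, GRCh38.p14), 39976 bases apart. PVR (chr19:44643910-44666162) and NECTIN2 (chr19:44846297-44889223) are both on chromosome 19, 180134 bases apart with other genes between them. LGALS9 lies at chr17:27631188-27649560 and has near-identical copies, LGALS9B and LGALS9C, on the same chromosome. VTCN1 lies at chr1:117143587-117210927, CD276 at chr15:73683944-73714514, CD47 at chr3:108043091-108091031 and HLA-E, within the class I region, at chr6:30489509-30494194.

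Promoter sequences of 7 of the 9 genes were taken from RefSeq (GRCh38.p14), each covering 250 bases before and 50 bases after the annotated start. HLA-E and PDCD1LG2 had no entry. The windows were searched on both strands for the core of the interferon-stimulated response element (ISRE, GAAANNGAAA), for the gamma-activated site of interferon gamma signalling (GAS, TTCNNNGAA, its own reverse complement) and for the forkhead motifs TATTTAC and TGTTTAC. The promoters of CD274 and LGALS9, the members that rose in both lines under siFOXA1.1, are shown with matches in capitals, and that of VTCN1, which rose in RT112, is shown beside them.
CD274 (chr9:5450292-5450591, plus strand): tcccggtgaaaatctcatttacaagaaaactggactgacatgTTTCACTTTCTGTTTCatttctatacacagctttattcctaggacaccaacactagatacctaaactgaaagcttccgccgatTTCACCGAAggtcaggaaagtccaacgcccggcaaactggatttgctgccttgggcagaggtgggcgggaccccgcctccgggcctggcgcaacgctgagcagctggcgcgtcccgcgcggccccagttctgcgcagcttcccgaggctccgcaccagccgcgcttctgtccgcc
LGALS9 (chr17:27630938-27631237, plus strand): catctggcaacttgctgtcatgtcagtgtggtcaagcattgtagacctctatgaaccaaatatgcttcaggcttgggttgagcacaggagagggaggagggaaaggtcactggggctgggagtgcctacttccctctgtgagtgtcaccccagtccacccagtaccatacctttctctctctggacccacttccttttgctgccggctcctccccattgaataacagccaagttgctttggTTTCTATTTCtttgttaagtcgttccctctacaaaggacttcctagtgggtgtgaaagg
VTCN1 (chr1:117210878-117211177, minus strand): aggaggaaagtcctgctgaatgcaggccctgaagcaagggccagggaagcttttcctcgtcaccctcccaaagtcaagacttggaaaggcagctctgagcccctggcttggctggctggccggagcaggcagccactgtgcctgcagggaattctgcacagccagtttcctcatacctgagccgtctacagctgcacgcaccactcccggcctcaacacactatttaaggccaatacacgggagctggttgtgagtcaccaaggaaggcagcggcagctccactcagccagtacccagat
The CD274 window held 2 ISRE cores on the reverse strand, TTTCACTTTC at -208 and TTTCTGTTTC at -202 from the start site, which share 4 bases and are printed as 1 run, and the GAS TTCACCGAA at -125. LGALS9 held 1 ISRE core, TTTCTATTTC, at -9. No match was found in the windows of VTCN1, CD276, PVR, NECTIN2 or CD47, and none of the 7 windows held a forkhead match. Among 27305 promoters of the same length, 3.65% held an ISRE core, 7.88% a GAS and 6.05% a forkhead motif. These matches are letters in a window and were not tested for binding.

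The lines carried different ligands before any FOXA1 siRNA. Levels of different genes were compared as TPM (counts per gene length, scaled to the library), over the 4 siControl libraries of a line. In RT112 the order was NECTIN2 (39.3 ± 5.46 TPM), PVR (28.2 ± 4.51), LGALS9 (19.8 ± 9.05), CD47 (16.3 ± 4.77), CD276 (9.68 ± 4.05), VTCN1 (5.02 ± 2.45), CD274 (1.34 ± 1.05), HLA-E (0.333 ± 0.332) and PDCD1LG2 (0.0275 ± 0.055; SD, n = 4 for each). Only NECTIN2 and VTCN1 lay wholly above the next gene in this order, and the ranges of all other neighbours overlapped. In SCaBER the order was PVR (96.5 ± 10.9 TPM), CD47 (82.1 ± 15.3), NECTIN2 (53.2 ± 11.8), CD276 (24.1 ± 1.97), PDCD1LG2 (10.2 ± 6.48), LGALS9 (7.62 ± 2.97), HLA-E (3.43 ± 2.75), CD274 (2.46 ± 1.24) and VTCN1 (0.173 ± 0.345; SD, n = 4 for each). There NECTIN2, CD276 and CD274 lay wholly above the next gene, and the other neighbours overlapped. Because the kit reads transcript ends, dividing by gene length lowers long genes in these orders.

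**Figure D1:**
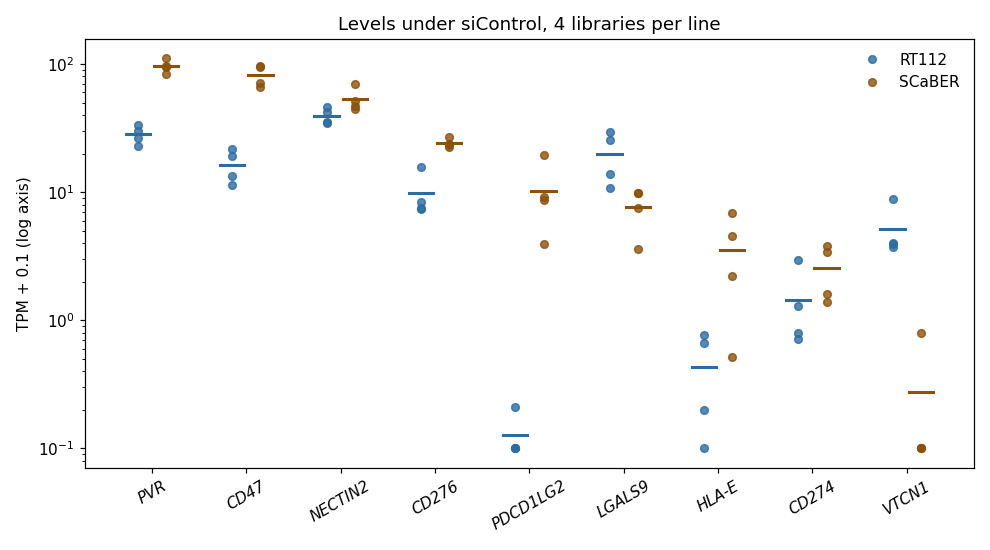
Level of each ligand in the 4 siControl libraries of RT112 (blue) and SCaBER (brown), as TPM + 0.1 on a log axis, with points for libraries and bars for their mean. PDCD1LG2 and VTCN1 are each listed near 0 in 1 line and at a mean of 10.2 and 5.02 TPM in the other.

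Tested between the lines on counts, 6 of the 8 members that passed the filter differed, where 43.4% of the 12309 genes tested did. RT112 had more VTCN1, an inhibitor of T cells of the B7 family (log2 difference 5.08, SE 0.99, adjusted p = 6.90e-04), and more LGALS9, a lectin that binds TIM-3 (1.80, SE 0.38, adjusted p = 0.00142). SCaBER had more PDCD1LG2 (log2 difference, RT112 against SCaBER, -7.43, SE 0.96, adjusted p = 1.84e-05), CD47 (-1.94, SE 0.19, adjusted p = 8.36e-07), PVR (-1.39, SE 0.16, adjusted p = 5.02e-06) and CD276 (-0.93, SE 0.24, adjusted p = 0.0055). The fitted values for PDCD1LG2 and VTCN1 rest on very few counts in the lower line. PDCD1LG2 had 227 counts in the SCaBER controls and 1 in the RT112 controls, a ratio per total of 284 (95% exact interval 50.5 to 11272). VTCN1 had 229 counts in RT112 against 5 in SCaBER, a ratio of 36.6 (95% exact interval 15.5 to 114). All 5 came from siControl.1 replicate 1, and the fitted value was 8.70 without it, while that for PDCD1LG2 was -8.89 without RT112 siControl.1 replicate 1, which held its only count. Both exact intervals pool the control libraries of a line, so they cover counting error only and leave out the spread between libraries. CD274 (log2 difference -0.44, 95% interval -1.78 to 0.91) and NECTIN2 (-0.03, 95% interval -0.37 to 0.31) did not pass the test, and the interval for CD274 is wide. In RNA from a whole culture, fewer cells carrying a transcript and less of it per cell cannot be told apart.

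PD-L1 rose under siFOXA1.1 in both lines and under siFOXA1.2 in neither. In RT112, CD274 was at 6.18 and 1.51 CPM under siControl.1 and at 2.40 and 1.25 CPM under siControl.2. It was at 24.0 and 26.1 CPM under siFOXA1.1, above every other RT112 library (10.3-fold, log2 change 3.36, SE 0.71, adjusted p = 0.00137 against both controls; 4.03 without siControl.1 replicate 1). Over the other ways of processing the RT112 change ranged from 2.39 to 4.03, and its highest adjusted p was 0.0419, with DESeq2. Under siFOXA1.2 the libraries held 0 and 3.14 CPM, 1 below and 1 inside the control range (log2 change -0.72, 95% interval -2.37 to 0.93, adjusted p = 0.837). In SCaBER, CD274 was at 2.496 and 5.14 CPM under siControl.1, 2.11 and 5.96 CPM under siControl.2, 19.1 and 34.7 CPM under siFOXA1.1, and 5.86 and 6.18 CPM under siFOXA1.2. The siFOXA1.1 libraries again stood apart from the other 6 (7-fold, log2 change 2.81, SE 0.52, adjusted p = 0.00328), while those of siFOXA1.2 met the top of the controls (log2 change 0.65, SE 0.54, adjusted p = 0.999). Within experiment batches 1 and 2 the log2 ratio for siFOXA1.1 was 2.48 and 3.82 among the RT112 libraries, then 2.81 and 2.54 among those of SCaBER. The SCaBER call rested in part on 1 library, with adjusted p = 0.0524 without siFOXA1.1 replicate 2.

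Set against each other, siFOXA1.1 exceeded siFOXA1.2 for CD274 in RT112 with a log2 difference of 4.08 (SE 0.96, adjusted p = 0.00395, or 0.0364 with DESeq2). The value was 3.10 without siFOXA1.2 replicate 1, the library at 0, and 10.56 without siFOXA1.2 replicate 2, when only the library at 0 was left. In SCaBER the same difference was 2.16 (SE 0.63, adjusted p = 0.0679). With the experiment batch as a replicate block, that SCaBER difference was 2.07 with adjusted p = 0.0414, past the threshold. It also passed with DESeq2 (2.18, adjusted p = 0.0167) and in edgeR with no filter (2.16, adjusted p = 0.0297). Each siRNA's change was computed against the same 4 control libraries of its line, so those changes are not independent of each other. The part that the different loss of FOXA1 under the siRNAs plays in these values was not tested.

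**Figure D2:**
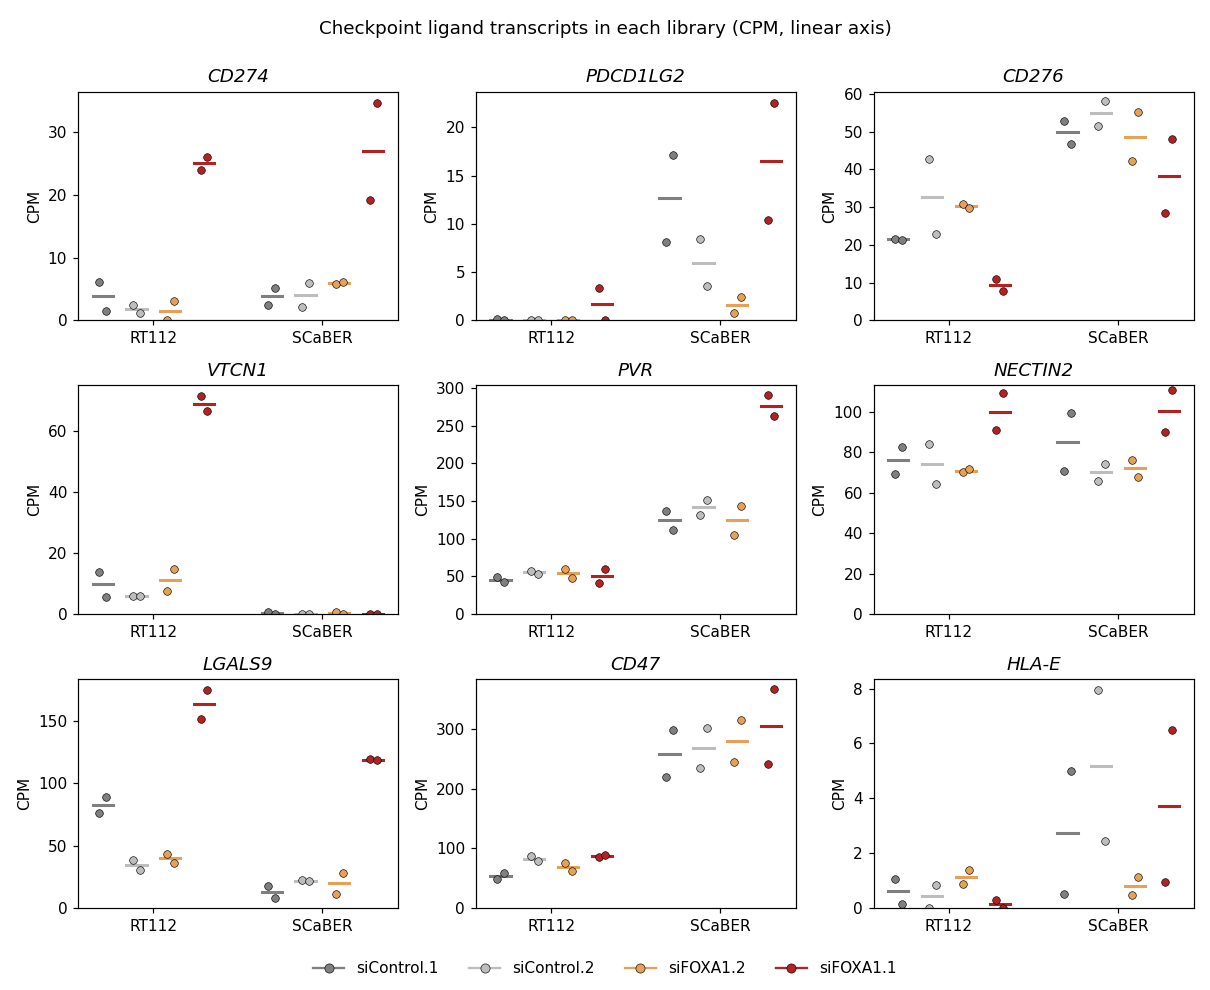
CPM of each ligand in every library (points) and the mean of the 2 libraries per siRNA (bars), on linear axes that start at 0, with 1 panel per gene. The siFOXA1.1 points lie above every other library of the line for CD274 (19.1 to 34.7 CPM) and LGALS9 in both lines, for VTCN1 and NECTIN2 in RT112 and for PVR in SCaBER.

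PD-L2 was not called against the controls in SCaBER and was not tested in RT112. In SCaBER, PDCD1LG2 was at 8.15 and 17.1 CPM under siControl.1, 8.44 and 3.53 CPM under siControl.2, 10.4 and 22.6 CPM under siFOXA1.1, and 0.771 and 2.38 CPM under siFOXA1.2. The siFOXA1.1 libraries overlapped the controls (log2 change 0.94, SE 0.58, adjusted p = 0.371), and the siFOXA1.2 libraries lay below all of them without passing the adjusted test (log2 change -2.44, SE 0.71, adjusted p = 0.523). Between siFOXA1.1 and siFOXA1.2 the log2 difference of the gene was 3.38 (SE 0.78, adjusted p = 0.0217). That call was lost without siFOXA1.2 replicate 1 (2.79, adjusted p = 0.223), siFOXA1.2 replicate 2 (4.37, adjusted p = 0.0714) or siFOXA1.1 replicate 2 (2.77, adjusted p = 0.0931), and also with limma on TPM (adjusted p = 0.0561) or 1 fit of all 16 libraries (0.131). In RT112, PDCD1LG2 was not tested: it had 1 count in siControl.1 replicate 1, 23 counts in siFOXA1.1 replicate 1 and 0 in the other 6 libraries. The 3.37 CPM in that single siFOXA1.1 library had no counterpart in replicate 2.

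Galectin-9 rose with PD-L1 in both lines. In RT112, LGALS9 was at 76.3 and 88.9 CPM under siControl.1, 38.6 and 30.6 CPM under siControl.2, 152 and 175 CPM under siFOXA1.1, and 43.6 and 36.2 CPM under siFOXA1.2. The siFOXA1.1 libraries were the highest (3.36-fold, log2 change 1.75, SE 0.17, adjusted p = 3.49e-07). LGALS9 was also the member that differed between the control siRNAs, higher by 1.32 under siControl.1 (SE 0.21, adjusted p = 0.00146; 0.0507 without siControl.2 replicate 2). It was the 1 call among the 7 members tested in that comparison, where 2.36% of all genes were called. As a result the size of each change depends on the control: siFOXA1.1 was higher by a log2 value of 1.09 against siControl.1 alone (adjusted p = 5.03e-04) and by 2.41 against siControl.2 alone (adjusted p = 1.90e-07). For siFOXA1.2 the value was -1.06 against siControl.1 alone (adjusted p = 0.00592), 0.25 against siControl.2 alone (adjusted p = 0.782) and -0.41 against both (adjusted p = 0.369).

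In SCaBER, LGALS9 was at 17.1 and 7.48 CPM under siControl.1, 22.2 and 21.6 CPM under siControl.2, 119 and 118 CPM under siFOXA1.1, and 11.3 and 27.9 CPM under siFOXA1.2. The siFOXA1.1 libraries lay far above all others (7.38-fold, log2 change 2.88, SE 0.35, adjusted p = 1.60e-04), and the difference from siFOXA1.2 was 2.62 (SE 0.44, adjusted p = 0.00315; 0.0785 without siFOXA1.2 replicate 1, and a value of 3.40 without replicate 2). Reads could be shared among LGALS9 and its copies. LGALS9B stood at 12.2 to 15.96 CPM in the RT112 siFOXA1.1 libraries and 2.33 to 7.64 CPM in the other 6, and it overlapped between siFOXA1.1 and the rest in SCaBER (2.08 to 5.64 against 0 to 7.07 CPM). LGALS9C did not exceed 2.84 CPM in any library, so how counts were split among the 3 genes is uncertain.

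B7-H4 was the second member of the B7 family to rise in RT112. VTCN1 was at 13.8 and 5.74 CPM under siControl.1, 5.86 and 5.84 CPM under siControl.2, 71.3 and 66.4 CPM under siFOXA1.1, and 7.72 and 14.6 CPM under siFOXA1.2. The siFOXA1.1 libraries exceeded all others (9.96-fold, log2 change 3.32, SE 0.32, adjusted p = 4.90e-07), while siFOXA1.2 overlapped the controls (log2 change 0.58, 95% interval -0.10 to 1.26, adjusted p = 0.570). Between the FOXA1 siRNAs the log2 difference was 2.74 (SE 0.40, adjusted p = 6.72e-05). In SCaBER the gene was close to the floor of 3 counts or at 0, with 5 counts in siControl.1 replicate 1, 4 in siFOXA1.2 replicate 1 and 0 in the other 6 libraries, so no change was tested there.

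B7-H3 moved the other way in RT112. CD276, a B7 family ligand found on many tumours, was at 21.7 and 21.3 CPM under siControl.1, 42.8 and 22.8 CPM under siControl.2, 11.0 and 7.66 CPM under siFOXA1.1, and 30.7 and 29.8 CPM under siFOXA1.2. It fell 2.6-fold under siFOXA1.1, below every other library (log2 change -1.38, SE 0.33, adjusted p = 0.00365), and stayed within the control range under siFOXA1.2 (log2 change 0.20, SE 0.30, adjusted p = 0.884). The log2 difference between the FOXA1 siRNAs was -1.58 (SE 0.37, adjusted p = 0.0035). In SCaBER the values were 52.9 and 46.8 CPM under siControl.1, 51.6 and 58.1 CPM under siControl.2, 28.4 and 48.2 CPM under siFOXA1.1, and 42.3 and 55.1 CPM under siFOXA1.2. The groups overlapped there (siFOXA1.1 log2 change -0.42, 95% interval -0.95 to 0.10, adjusted p = 0.388).

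Of the ligands of TIGIT, PVR rose in SCaBER. It was at 137 and 112 CPM under siControl.1, 132 and 151 CPM under siControl.2, 291 and 262 CPM under siFOXA1.1, and 105 and 144 CPM under siFOXA1.2. The siFOXA1.1 libraries did not overlap the rest (2.13-fold, log2 change 1.09, SE 0.19, adjusted p = 0.00236), and siFOXA1.2 did (log2 change -0.08, SE 0.20, adjusted p = 0.999). Against siFOXA1.2 the difference was 1.17 (SE 0.23, adjusted p = 0.00867; 0.18 without siFOXA1.2 replicate 1). In RT112 PVR was at 48.8 and 42.4 CPM under siControl.1, 57.6 and 52.8 CPM under siControl.2, 41.9 and 59.96 CPM under siFOXA1.1, and 59.9 and 48.2 CPM under siFOXA1.2. No group stood apart there (siFOXA1.1 log2 change 0.16, 95% interval -0.25 to 0.57, adjusted p = 0.604), and the batches gave ratios of opposite sign, -0.34 and 0.34.

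NECTIN2, the other ligand of TIGIT, was at 69.3 and 82.7 CPM under siControl.1 in RT112, 84.2 and 64.2 CPM under siControl.2, 90.8 and 109 CPM under siFOXA1.1, and 70.4 and 71.6 CPM under siFOXA1.2. The siFOXA1.1 libraries were the highest, and the 1.47-fold rise passed the test (log2 change 0.55, SE 0.17, adjusted p = 0.0197). The call was lost without siControl.1 replicate 1 (adjusted p = 0.0766), siControl.2 replicate 2 (0.081) or siFOXA1.1 replicate 2 (0.21). Against siFOXA1.2 in RT112 the log2 difference was 0.615 (SE 0.20, adjusted p = 0.0308), a call kept in 10 of 16 alternatives. It was lost with library totals (adjusted p = 0.0748), limma on TPM (0.261) and 1 fit of all 16 libraries (0.0773), among others. In SCaBER the NECTIN2 libraries spanned 66.0 to 99.4 CPM under the controls and 90.1 and 111 CPM under siFOXA1.1 (log2 change 0.41, SE 0.21, adjusted p = 0.272). Values under siFOXA1.2 were 76.2 and 68.0 CPM, inside the control range.

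CD47, the signal that restrains phagocytosis, was at 49.0 and 57.8 CPM under siControl.1 in RT112, 87.2 and 78.2 CPM under siControl.2, 85.5 and 89.0 CPM under siFOXA1.1, and 74.5 and 62.4 CPM under siFOXA1.2. The 1.44-fold rise under siFOXA1.1 passed the test (log2 change 0.53, SE 0.17, adjusted p = 0.0215), yet its libraries overlapped those of siControl.2, and against siControl.2 alone the value was 0.24 (adjusted p = 0.399). The call was also lost without siControl.1 replicate 1 (adjusted p = 0.0783), siControl.2 replicate 2 (0.0724) or siFOXA1.1 replicate 2 (0.117). In SCaBER, CD47 spanned 219 to 302 CPM in the controls, 242 and 368 CPM under siFOXA1.1 and 245 and 316 CPM under siFOXA1.2, with no call (siFOXA1.1 log2 change 0.24, SE 0.20, adjusted p = 0.552).

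HLA-E was listed at low values throughout. In SCaBER it was at 0.499 and 4.99 CPM under siControl.1, 7.95 and 2.43 CPM under siControl.2, 0.947 and 6.51 CPM under siFOXA1.1, and 0.463 and 1.11 CPM under siFOXA1.2. Libraries of the same siRNA lay far apart under the controls and siFOXA1.1 (siFOXA1.1 log2 change 0.00, SE 1.24, siFOXA1.2 -2.22, SE 1.27, neither called). In RT112 it ranged from 0 to 1.37 CPM and was not tested. Other class I genes are near-identical to it in parts and could share its reads. Their median over the 16 libraries was 2.5 counts for HLA-B, 3.5 for HLA-C and 64 for HLA-F (0 to 351). HLA-F was at 0 in 8 of the 16 libraries, so its median is not a typical value. TAP2 and DDX39B, a gene of the same region picked after its values were seen, were listed at 0 in all 16. The HLA-E level in these tables is therefore given as listed and is not read as the level in the cells.

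**Figure D3:**
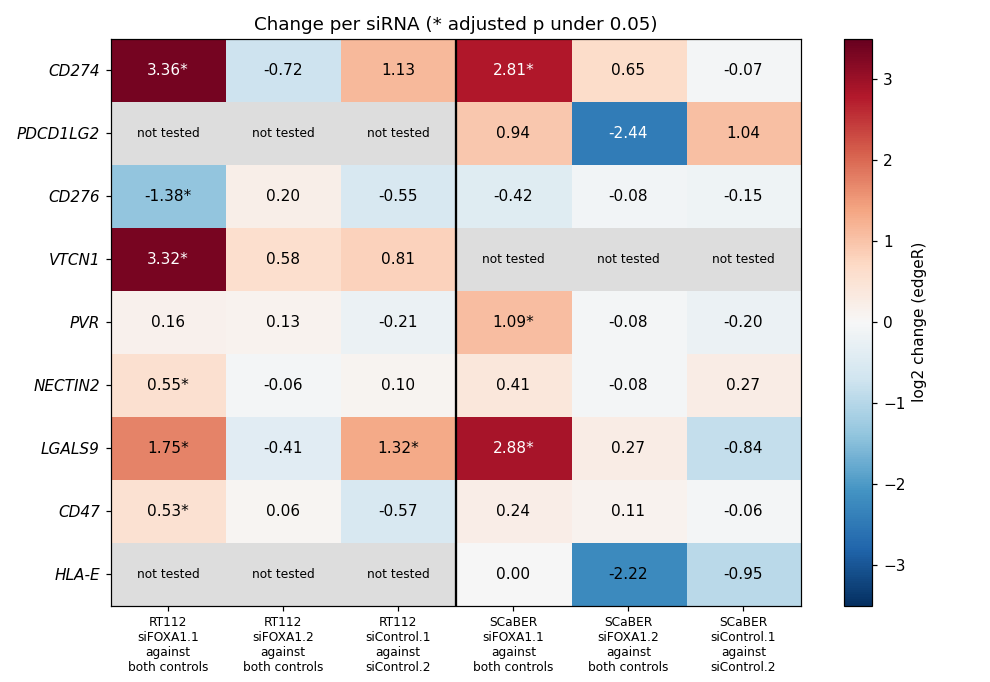
Log2 change of each ligand (rows) in 3 comparisons per line (columns), coloured from blue (lower) to red (higher), with an asterisk for adjusted p under 0.05 and grey for genes that did not pass the filter. The calls lie in the siFOXA1.1 columns of RT112 (6) and SCaBER (3), apart from LGALS9 between the control siRNAs of RT112 (1.32).

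Counted over the members, siFOXA1.1 gave 6 calls among 7 tested in RT112, 5 higher and 1 lower, where 32.6% of the 11986 genes tested passed. In SCaBER it gave 3 calls among 8 tested, all higher, where 9.26% of 11902 genes passed. The members tested had a median log2 change of 0.55 in the first line and 0.67 in the second, beside -0.01 and 0.01 over all genes tested. siFOXA1.2 gave no call among the members in either line, where 2.04% of genes passed in RT112 and 0.042% in SCaBER (medians 0.06 and -0.08, beside 0.01 and 0.01). Without adjustment, siFOXA1.2 reached 0.05 for 1 member per line by edgeR, LGALS9 in RT112 and PDCD1LG2 in SCaBER, and DESeq2 and limma with adjustment also called none. siFOXA1.1 against siFOXA1.2 gave 5 calls in RT112 (28.1% of genes) and 3 in SCaBER (4.85% of genes), and siControl.1 against siControl.2 gave none in SCaBER (0.0672% of genes). Pooling both FOXA1 siRNAs against both controls called no member by edgeR, with 0.108% of genes called in RT112 and 0.0084% in SCaBER. The pooled values were 2.34 for CD274 (adjusted p = 0.421) and 2.46 for VTCN1 (adjusted p = 0.248) in RT112, and 2.10 for CD274 and 2.04 for LGALS9 in SCaBER (adjusted p = 0.416 for each). With no filter, edgeR called both in the pooled SCaBER fit (adjusted p = 0.00921 for CD274 and 6.78e-10 for LGALS9). That fit called 213 genes, against 1 with the filter, so the pooled SCaBER result depends on the filter. Unadjusted edgeR p fell under 0.05 for 1 member in the pooled RT112 fit and 3 in the pooled SCaBER fit, and for none between the SCaBER controls. DESeq2 called VTCN1 in the pooled RT112 fit (adjusted p = 0.00878) and no member in the pooled SCaBER fit.

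Whether a change differed between the lines was tested directly over the 16 libraries. No member passed for the siFOXA1.1 change, where 3.14% of the 13701 genes did, nor for siFOXA1.2 (0.0438%). Unadjusted edgeR p fell under 0.05 for 4 and 0 members, DESeq2 with adjustment called 1 and 0 (PVR), and limma 2 and 0 (PVR and VTCN1). The difference, RT112 minus SCaBER, was -0.95 for PVR (SE 0.28, adjusted p = 0.0757), -1.15 for LGALS9 (SE 0.42, adjusted p = 0.165), -0.97 for CD276 (SE 0.42, adjusted p = 0.248) and 0.54 for CD274 (95% interval -1.54 to 2.61, adjusted p = 0.921). For VTCN1 edgeR gave no usable estimate, since SCaBER had 0 counts under siFOXA1.1, while limma on log2(TPM + 1) gave 3.00 (adjusted p = 0.00969). The PVR difference passed with DESeq2 (-0.95, adjusted p = 0.0331), no filter (-0.96, adjusted p = 0.0414), library totals (-1.04, adjusted p = 0.0429), limma (-1.23, adjusted p = 0.0182) and without SCaBER siFOXA1.1 replicate 2 (-1.06, adjusted p = 0.0497), so its call depends on the processing. LGALS9 passed with no filter (-1.16, adjusted p = 0.0306) and without SCaBER siControl.1 replicate 1 (-1.52, adjusted p = 0.0385). The calls of CD276, NECTIN2 and CD47 in RT112 alone are not shown to be differences between the lines.

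In RT112, mitochondrial genes took 25.7% and 28.2% of the counts under siFOXA1.1 and 18.0% to 21.2% in the other 6 libraries. With these genes removed the member calls were again 6 in RT112 and 3 in SCaBER.

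The signalling genes that lead to PD-L1 transcription were followed as a list of 13. Under siFOXA1.1, 5 of the 11 tested rose and 1 fell in RT112 (median 0.45), and 3 of 12 rose in SCaBER (median 0.49), where 32.6% and 9.26% of all genes were called. No gene of the list was called under siFOXA1.2 (medians -0.08 and -0.06). STAT2, a transcription factor of type I interferon signalling, rose by 1.75 on the log2 scale in RT112 (SE 0.31, adjusted p = 2.68e-04) and 2.53 in SCaBER (SE 0.30, adjusted p = 1.33e-04), beside 0.15 and 0.44 under siFOXA1.2, which were not called. IRF9, the DNA-binding partner of STAT2, rose by 4.27 in RT112 (SE 0.72, adjusted p = 1.60e-04) and had a value of 1.71 in SCaBER (adjusted p = 0.108).

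The interferon gamma receptor chain IFNGR1 passed the test in RT112 (1.44, SE 0.46, adjusted p = 0.0231), but its siFOXA1.1 libraries held 51 and 220 counts beside 54 to 66 in the controls, so that only 1 of them lay above the controls. STAT3 rose in RT112 (0.62) and IRF2 in SCaBER (0.87), and the kinase JAK1 was the gene that fell in RT112 (-1.12, adjusted p = 3.29e-05), all 3 named after their values were seen. IRF1, the factor best known for driving PD-L1, was called in neither line. The list was drawn up with earlier results of these libraries known, and the part of these genes in the CD274 values was not tested.

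**Figure D4:**
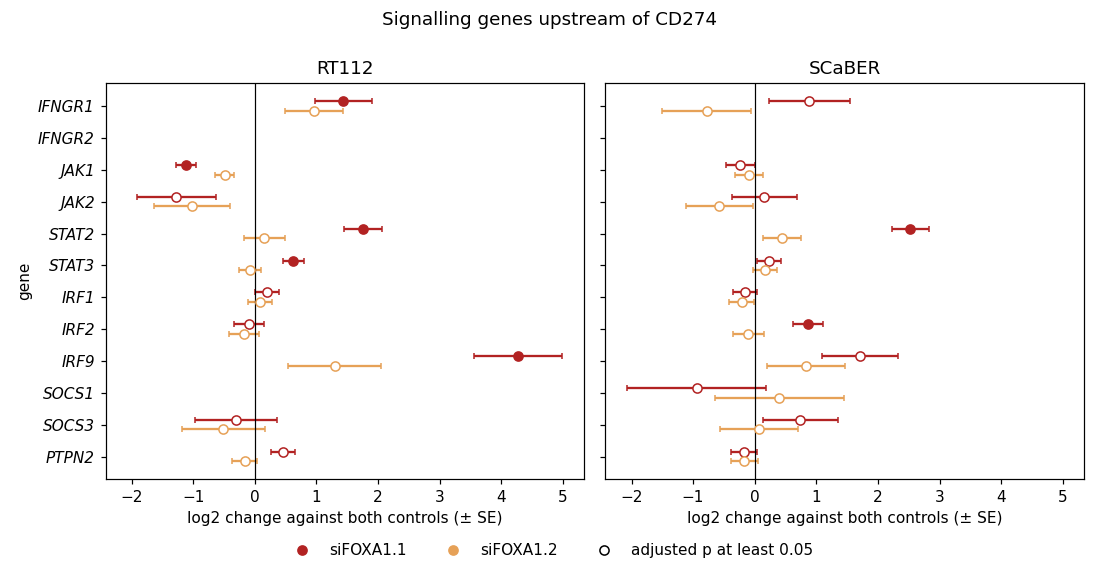
Log2 change (± SE) against both controls of 12 signalling genes upstream of CD274, for siFOXA1.1 (red) and siFOXA1.2 (orange) in each line, with filled points for adjusted p under 0.05 and no point for a gene not tested. Under siFOXA1.1, STAT2 lies at 1.75 in the RT112 panel and at 2.53 in the SCaBER panel, and all siFOXA1.2 points are open.

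PD-L1 protein is also held at the surface or sent for degradation by a set of partners, followed as a list of 10. In RT112 under siFOXA1.1, 4 rose and 1 fell (median 0.13), where 32.6% of all genes were called. CMTM4, which protects PD-L1 from degradation, fell (log2 change -1.73, adjusted p = 6.79e-06), whereas HIP1R, which routes PD-L1 to lysosomes, rose by 1.46 (adjusted p = 0.00731). The kinase GSK3B, which marks PD-L1 for destruction, rose by 0.93 (adjusted p = 1.72e-04), COPS5, which removes ubiquitin from it, by 0.85 (adjusted p = 0.00377), and the ubiquitin ligase adaptor SPOP, named after its value was seen, by 0.50 (adjusted p = 0.0116). No gene of the list was called in SCaBER under siFOXA1.1 (median 0.21), nor under siFOXA1.2 in either line (medians -0.03 and -0.10). Protein was not measured.

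Partners of CD47 and HLA-E were followed in the same way. Over all genes tested, siFOXA1.1 called 32.6% in RT112 and 9.26% in SCaBER, and siFOXA1.2 called 2.04% and 0.042%. Of 5 partners of CD47, 2 were tested in each line and only THBS1, a secreted ligand of CD47, rose in RT112 under siFOXA1.1 (1.83, SE 0.19, adjusted p = 8.44e-07, list median 0.68). THBS1 also differed between the control siRNAs of RT112, lower under siControl.1 (log2 difference -1.63, SE 0.24, adjusted p = 7.36e-04). None was called in SCaBER (median 0.40) or under siFOXA1.2 (medians 0.28 and -0.61). Of 12 partners of HLA-E in peptide loading, 5 were tested in RT112 and 9 in SCaBER. CALR, a chaperone of class I assembly, rose in RT112 under siFOXA1.1 (0.74, adjusted p = 3.68e-06) and siFOXA1.2 (0.36, adjusted p = 0.035), with list medians of 0.45 and -0.06. NLRC5, the activator of class I genes, rose in SCaBER under siFOXA1.1 (1.22, adjusted p = 0.0129, list median 0.45), and no gene of the list was called there under siFOXA1.2 (median 0.23). Of a list of 12 immune receptors, 4 (PDCD1, CTLA4, TIGIT and LAG3) were at 0 in all 16 libraries. Only SIRPA was tested, without a call (log2 change under siFOXA1.1 -0.48 for RT112 cells and 0.81 for SCaBER cells, under siFOXA1.2 -0.09 and -0.81).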

How the data were processed

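The authors deposited raw counts per gene and TPM values for 16 libraries made with the Lexogen 3' mRNA FWD kit. Their configuration records trimming by TrimGalore 0.6.2 (minimum quality 20, minimum length 10), alignment against hg38 by STAR 2.6.1a, and counting over GENCODE 29 genes. The study's methods give another build, and the strand setting was automatic. The siRNA dose is that of the labels. The 9 members, the pathway lists and the tests were chosen with earlier results of these data known. Within lists, up to 4 genes were named, those with the largest log2 change among those called in either line under a FOXA1 siRNA.

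CPM was computed from library totals. Counts were fitted in edgeR 4.0.16 (R 4.3.3) with TMM, filterByExpr and the quasi-likelihood F test, 1 mean per siRNA and all 8 libraries of a line, and p was adjusted by Benjamini-Hochberg over all genes tested (threshold 0.05). The line comparison used the 8 siControl libraries and the difference of changes all 16. Changes are log2. Each edgeR standard error was derived from the change and its F statistic, and 95% intervals took it with normal quantiles. These intervals are therefore narrower than the F test implies, and calls rest on adjusted p alone. Within-batch ratios used log2(CPM + 0.5). DESeq2 1.42.0 and limma 3.58.1 on log2(TPM + 1) were alternatives. The procedure was run on simulated counts for a single RT112 comparison, with a fixed spread and changes placed only in genes with many counts. That run does not cover members with few counts or the spread between these libraries. Labels number libraries by experiment batch, and same-numbered libraries of a line were taken as pairs only in the replicate block and the within-batch ratios. Deviations of same-numbered libraries correlated from -0.016 to 0.0157 in RT112 and from 0.0196 to 0.215 in SCaBER. Where no label names separate cultures, p measures the spread between libraries only. Values of 3 genes of the lists are not reported here. Columns of the deposited tables were all assigned to samples.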

Additional observations from a re-analysis of the deposited data

Results flagged for a closer look

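Of 36 sets of 4 libraries looked at (each ligand, line and target), 7 had 1 library far from the other 3. The rule used flags about 1 in 20 sets of normal values from a single group. Here each set pools different siRNAs, and a set with 3 libraries at 0 and 1 above it is always flagged. The rate of 1 in 20 therefore does not apply to these sets. In most of the 7 sets, the other 3 libraries lay at or near the detection floor. In RT112 controls PDCD1LG2 was at 0.132 CPM in siControl.1 replicate 1 and 0 in the rest, and under the FOXA1 siRNAs it was at 3.37 CPM in siFOXA1.1 replicate 1 and 0 in the rest. VTCN1 in SCaBER was at 0.832 CPM in 1 control library and at 0.617 CPM in 1 FOXA1 siRNA library, with 0 elsewhere. HLA-E in SCaBER reached 6.51 CPM in siFOXA1.1 replicate 2, while the other 3 FOXA1 siRNA libraries were at most 1.11 CPM. In RT112 controls, VTCN1 reached 13.8 CPM in siControl.1 replicate 1 (others 5.74 to 5.86 CPM) and CD276 reached 42.8 CPM in siControl.2 replicate 1 (others 21.3 to 22.8 CPM). Both remained on the control side of the siFOXA1.1 libraries.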

How the results depend on the processing

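Across the alternatives (DESeq2, library totals, limma on TPM, other filters, mitochondrial genes removed, single controls, a replicate block, 1 fit of all libraries and each library left out), the 24 called member changes gave 390 values, none of which changed sign and 31 of which missed the threshold. Of 1363 values of changes not called, 17 passed it and 71 changed sign while called in neither setting, so no direction is read from them. The replicate block changed the call of CD274 in SCaBER between the FOXA1 siRNAs (2.07, adjusted p = 0.0414) and no other member's. The same CD274 difference also passed with DESeq2 (adjusted p = 0.0167) and with no filter (0.0297). CD47 and NECTIN2 in RT112 under siFOXA1.1 also missed the threshold with library totals (adjusted p = 0.0835 and 0.072), limma (0.438 and 0.318) and 1 fit of all libraries (0.0588 and 0.0541), and NECTIN2 did so against siControl.1 alone (0.0746). Counts of members called moved from 0 to 1 for siFOXA1.2 in RT112 against siControl.1 alone, from 1 to 0 between the RT112 controls with limma or 1 fit of all libraries (0 to 1 over libraries left out; 0 without siControl.2 replicate 2), from 0 to 1 for the pooled RT112 comparison with DESeq2 (VTCN1, adjusted p = 0.00878) or no filter (0.0123), and from 0 to 2 for the pooled SCaBER comparison with no filter. For the difference between lines of the siFOXA1.1 change they moved from 0 to 1 with DESeq2 or library totals (PVR, adjusted p = 0.0331 and 0.0429) and to 2 with no filter or limma (0 to 1 over libraries left out). Leaving out libraries gave 0 to 4 calls between the SCaBER FOXA1 siRNAs. The cause of these shifts was not tested. With 2 libraries per siRNA and few counts for CD274, PDCD1LG2 and HLA-E, small changes were not detectable at this depth.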

Other observations

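Other surface ligands, taken as lists of families, included a few that moved, where siFOXA1.1 called 32.6% of all genes in RT112 and 9.26% in SCaBER. The shares under siFOXA1.2 were 2.04% and 0.042%. Of 11 further B7 and butyrophilin genes, 5 were tested in RT112 and 6 in SCaBER. BTN3A1, a butyrophilin recognised by gamma-delta T cells, rose in RT112 under siFOXA1.1 (log2 change 1.69, SE 0.41, adjusted p = 0.00344) and also under siFOXA1.2 (1.95, SE 0.40, adjusted p = 0.0139), and in SCaBER under siFOXA1.1 (1.12, SE 0.30, adjusted p = 0.0307). Its SCaBER value under siFOXA1.2 was 0.72 (adjusted p = 0.857). BTN3A2 rose in RT112 under siFOXA1.1 (1.21, adjusted p = 0.00179). The BTN3A genes are close copies whose reads could be shared, so the split between them is uncertain. The list had a median of 0.57 for siFOXA1.1 and 0.41 for siFOXA1.2 in RT112, and of 0.58 and 0.09 respectively in SCaBER.

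Among 9 other inhibitory ligands, 4 were tested in RT112, where NT5E, the enzyme that makes adenosine, rose by 1.89 (adjusted p = 0.00761), CEACAM1 rose by 1.25 (adjusted p = 0.00597) and LGALS1 (galectin-1) fell by 1.49 on the log2 scale (adjusted p = 0.0122) under siFOXA1.1 (median 0.47). None of these 3 was called between the RT112 control siRNAs, where LGALS3, the other gene tested and named after its value was seen, was higher under siControl.1 (0.75, adjusted p = 0.0355). None of the 5 tested in SCaBER was called (median 0.61), nor any under siFOXA1.2 (medians -0.29 and -0.09). RAET1E, a ligand of NKG2D, rose by 1.48 in RT112 under siFOXA1.1 (adjusted p = 0.0222), the only call in a list of 11 NK cell ligands of which 4 were tested in RT112 and 6 in SCaBER (medians 0.55 and 0.79 under siFOXA1.1, 0.60 and -0.07 under siFOXA1.2).

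Of 6 other nectins, 3 were tested in each line. NECTIN4, an antibody target in bladder cancer, rose under siFOXA1.1 by 1.05 in RT112 (SE 0.25, adjusted p = 0.00299) and 1.30 in SCaBER (SE 0.36, adjusted p = 0.0361), and NECTIN1 fell by 0.99 on the log2 scale in RT112 (adjusted p = 1.30e-05). NECTIN1 also differed between the RT112 control siRNAs, lower under siControl.1 (-0.77, SE 0.14, adjusted p = 0.0055). No nectin was called under siFOXA1.2 (list medians -0.99 and 0.33 under siFOXA1.1, -0.13 and 0.51 under siFOXA1.2). Of 6 TNF family ligands and HVEM, 1 was tested in RT112, TNFSF9 (2.72, adjusted p = 0.0605 under siFOXA1.1, 1.40 under siFOXA1.2), and 3 in SCaBER (medians -0.02 and 0.29), with no call.

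As a description over the 16 libraries, with each line centred on its own mean, the genes most like CD274 in log2 CPM were RHBDF1 (r = 0.924), ZSWIM8 (0.916) and HPS5 (0.891). Those most like PVR were GBE1 (0.934), GBP2 (0.895) and MX1 (0.89), and those most like LGALS9 were TRIM38 (0.926), VPS25 (0.925) and VPS28 (0.91). RTF1, FHL3 and PLAC8 led for CD276 (0.942, 0.924 and 0.923), TSG101, ZMPSTE24 and COQ10B for NECTIN2 (0.883, 0.877 and 0.872), and GOLGA4, MARS and SEC62 for CD47 (0.913, 0.845 and 0.843). They were the highest of 10685 genes, and the libraries share their siRNAs and depth.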
